A study of Mus musculus with 30 samples.

Results

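The genes described here are 9 of the Wnt pathway in single mouse primordial germ cells (PGCs): the ligands *Wnt5b*, *Wnt3*, *Wnt3a*, *Wnt5a* and *Wnt8a*, the ligand carrier *Wls*, and *Lef1*, *Axin2* and *Ctnnb1* of the response. They were chosen by their measured values in these same cells, above all the low levels of *Wnt5b* and *Wls* in cells labelled *Prdm14* KO, so that contrast is described here and supports nothing. The array carries 20 probe sets for these 9 genes, of 45101 probe sets and 18194 named genes in all, and every one of the 20 is accounted for. Each of the 30 samples was 1 cell on 1 array, and the deposited value of a probe set is its log2 model-based expression index (MBEI), an estimate of transcript level from the brightness of its probes. At E7.25-E7.5 PGCs gather at the base of the allantois bud. The cells were taken there from C57BL/6 embryos of a cross between *Prdm14*+/- mice and were recognised by PCR for *Prdm1*, an early germ cell gene. By genotype label there were 4 cells of *Prdm14* KO (-/-), 13 of *Prdm14*+/- and 13 of WT (+/+) embryos, with no treatment in any group. The embryo of each cell is not named, so each label counts as 1 sample, no test was run, and every SD is a spread between cells.

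Wnt proteins are secreted signals to which the enzyme Porcn attaches a lipid and which the membrane protein Wls carries from the Golgi to the cell surface. On a receiving cell, Wnt3, Wnt3a and Wnt8a typically act through Frizzled receptors to spare β-catenin, the product of *Ctnnb1*, which enters the nucleus and acts with factors such as Lef1 on genes that include *Axin2*. Wnt5a and Wnt5b typically act without β-catenin, for example through the receptor Ror2. In the mouse embryo *Wnt3* is required for the primitive streak and for the competence of the epiblast to form PGCs.

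The number codes in the array titles fall into 3 sets of 10, called runs here. What the codes stand for is not stated, so that a run is inferred. The 4 cells labelled *Prdm14* KO were all in run 3, together with 6 of the cells labelled *Prdm14*+/-. Run 2 held the other 7 of these and 3 cells labelled WT, and run 1 held only the remaining 10 cells labelled WT, so the KO and WT labels share no run. The *Prdm14* transcript ran against the labels, with means of floored values of 11.40 (KO), 9.70 (*Prdm14*+/-) and 7.40 (WT), and every direction below is that of the deposited label. Whether its probe set lies in the disrupted part of the allele is not known here, and outside it the set would not check the labels. *Sox2*, which is known to need Prdm14 in mouse PGCs, had floored means of 12.48 (KO), 9.73 (*Prdm14*+/-) and 7.58 (WT), and the PGC gene *Dppa3* 12.55, 10.23 and 9.05. The paper reports lower *Dppa3* in *Prdm14* KO PGCs, by single-cell microarray and by quantitative PCR. Its microarray data are those deposited here. It also reports that *Dppa3* was not activated in *Prdm14* KO PGC-like cells made in vitro, and cites weaker DPPA3 protein staining in *Prdm14* KO PGCs. The order reported there is the opposite of that by these labels. The KO and WT labels may thus be exchanged, which was not tested. In that case the values given here for KO cells would belong to WT cells and those given for WT cells to KO cells, and every difference between the 2 would turn its sign. Between 12519 and 13270 probe sets were above 6 on the log2 scale (64 MBEI) in the KO arrays, 9856 to 13622 in the *Prdm14*+/- arrays and 9861 to 14204 in the WT arrays. This value was used as a floor, a gene above it is called on, and values at or below it have no order. Of 43 genes named as ribosomal proteins, 35 were above the floor in every cell, and 8 were listed at 0 in at least 1 cell. The names can take in relatives that not every cell uses, which was not checked. Whether a listed 0 is a failed estimate or a missing transcript can therefore not be told from them. A list of 14 PGC genes had a mean floored level of 10.64 to 11.09 in the KO cells, 7.35 to 10.98 in the *Prdm14*+/- cells and 8.28 to 10.81 in the WT cells, and the lowest were cells 100 and 78, both labelled *Prdm14*+/-. Genes of somatic mesoderm, the neighbouring cell type at this site, averaged 7.01 to 8.05 in the KO cells, 6.87 to 9.31 in the *Prdm14*+/- cells and 7.10 to 8.48 in the WT cells.

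*Wnt5b*, on chromosome 6 of GRCm38 from 119432531 to 119544824, encodes a ligand of the non-canonical branch. In KO cells 8, 18, 21 and 81 its value was 6.57, 0, 0 and 8.13 on the log2 MBEI scale. In the *Prdm14*+/- cells it was 0 at the lowest, 8.48 at the median and 11.84 at the highest, and in the WT cells 7.96, 10.42 and 11.79. Against the WT cells all 4 KO cells thus lay at the low end, and these labels overlapped only where KO cell 81 lay just above the lowest WT cell. The *Prdm14*+/- cells overlapped the KO cells further, with 6 of 13 at or below KO cell 81. The gene was on in 2 of 4 KO cells (exact 95% interval 6.76 to 93.2%), in 10 of 13 *Prdm14*+/- cells (46.2 to 94.96%) and in 13 of 13 WT cells (75.3 to 100%). These intervals cover the counting of cells only. Its second probe set, 1422602_a_at, gave the same state in 29 of 30 cells, with 6.85, 0, 0 and 8.53 in the KO cells. The exception was WT cell 59, at 0 on the second set and 8.33 on the first, so by the second set *Wnt5b* was on in 12 of 13 WT cells.

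*Wls*, on chromosome 3 from 159839650 to 159938666, encodes the carrier that Wnt proteins need to leave the cell. Its main probe set, 1423824_at, read 0, 9.43, 0 and 9.82 in KO cells 8, 18, 21 and 81. It ranged over 0, 11.02 and 11.81 (lowest, median and highest) in the *Prdm14*+/- cells and over 9.07, 10.95 and 12.50 in the WT cells. *Wls* was on in 2 of 4 KO, 12 of 13 *Prdm14*+/- and 13 of 13 WT cells, and both KO cells that had it lay below the WT median and above the lowest WT cell. A second probe set, 1437434_a_at, read 9.02, 8.58, 0 and 8.08 in the same KO cells. It therefore put *Wls* on in KO cell 8, where the main set was at 0, and gave the same state as the main set in 28 of 30 cells. The set 1423825_at was on in 0 of 4 KO, 6 of 13 *Prdm14*+/- and 8 of 13 WT cells, and 1458319_at was at the floor in all 30. For 4 cells, a count of 0 allows a share of up to 60.2% (exact 95% interval).

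**Figure D1:**
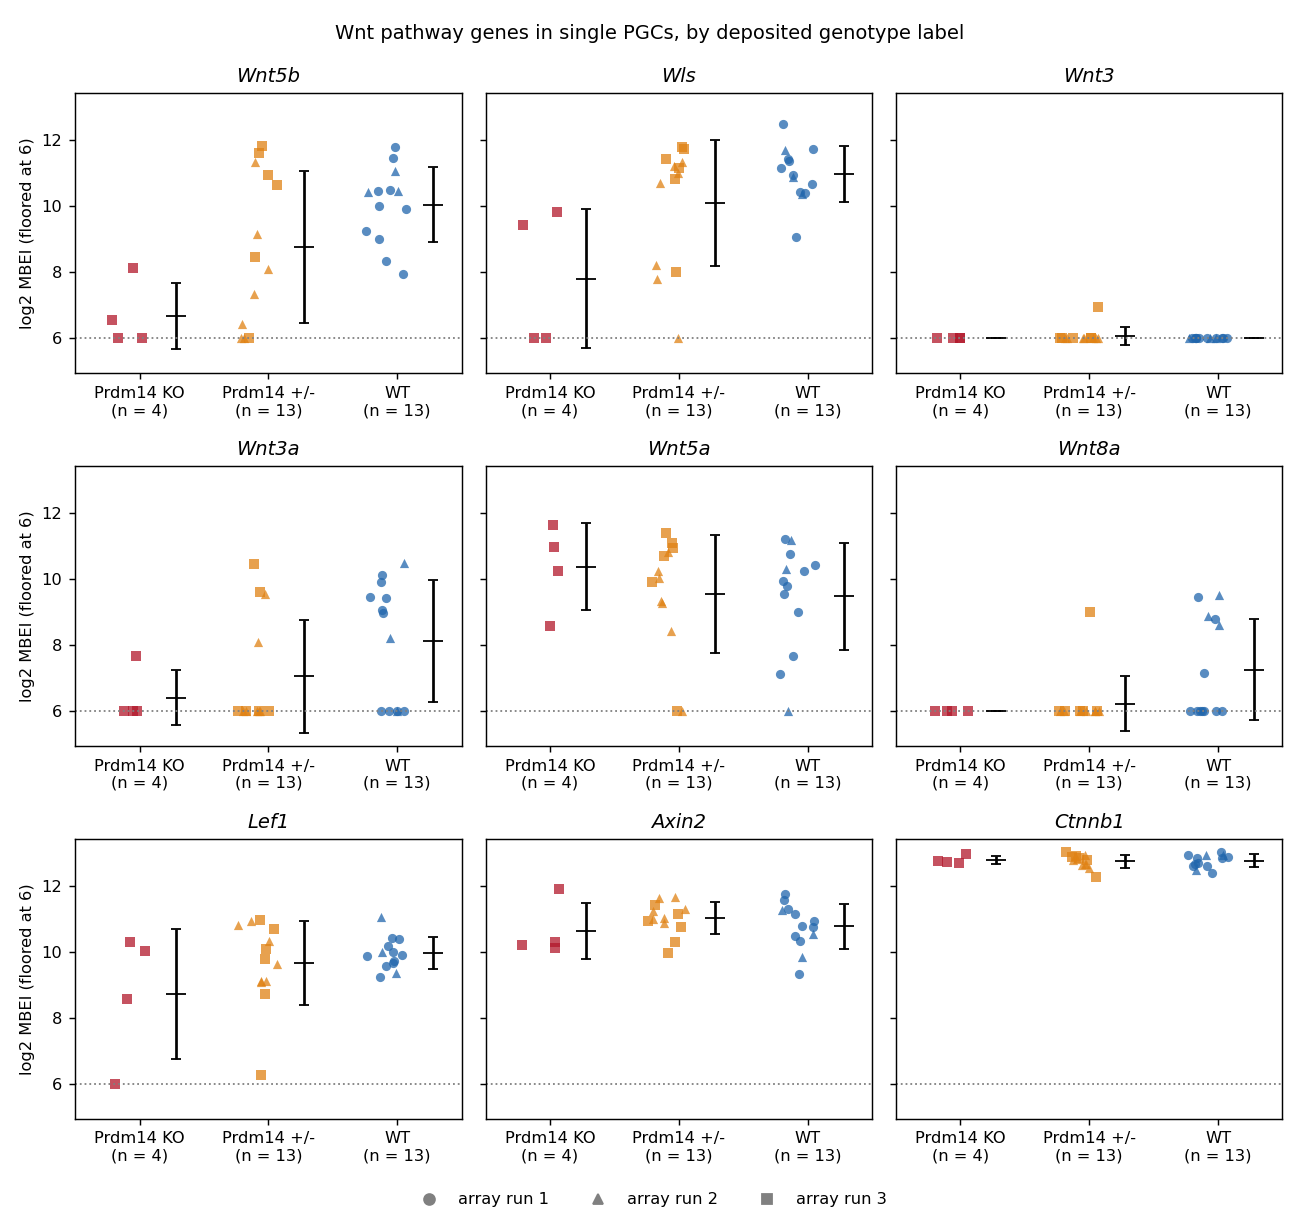
Floored log2 MBEI (vertical axes, dotted line at the floor of 6) of the 9 genes in each of 30 single PGCs, by genotype label, with symbols for the array run, horizontal lines for the mean and bars for the SD between cells. *Wnt5b* and *Wls* lay low in the 4 KO cells, with 2 of 4 at the floor for each, whereas *Axin2* and *Ctnnb1* were on in all 30 cells.

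Between means of floored values *Wnt5b* differed by -3.38 (KO minus WT), against a pooled SD between cells of 1.12, and *Wls* by -3.17 (pooled SD 1.20). A mean with cells at the floor understates the distance where their transcript was missing and overstates it where the estimate failed. Within run 3, where the KO and *Prdm14*+/- labels meet, the differences were -3.25 for *Wnt5b* (pooled SD 1.89) and -3.03 for *Wls* (pooled SD 1.71). Of the 6 *Prdm14*+/- cells of that run, 5 had *Wnt5b* at 8.48 to 11.84, above every KO cell, and cell 119 had it at 3.63. All 6 had *Wls* on, at 8.02 to 11.81, so that the KO cells with *Wls* at 9.43 and 9.82 lay within their range. Both contrasts use the same 4 KO cells and are not independent of each other.

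The *Prdm14*+/- cells differed between runs as well. *Wnt5b* had a floored mean of 9.92 in the 6 cells of run 3 and 7.77 in the 7 cells of run 2, and *Wls* 10.84 and 9.48. In run 2 the 3 WT cells had *Wnt5b* at 10.48, 10.42 and 11.08, and only *Prdm14*+/- cell 76, at 11.36, lay above them. The difference *Prdm14*+/- minus WT was -2.89 for *Wnt5b* and -1.52 for *Wls* within that run, and -1.29 and -0.88 over all runs, where both lay within the pooled SD (1.82 and 1.47). With the run as a block, a fit that reaches WT only through the 3 WT cells of run 2, KO minus WT became -6.14 for *Wnt5b* and -4.54 for *Wls*. These values add the difference within run 3 to that within run 2. They are extrapolations and not differences between measured cells. That for *Wnt5b* is larger than the distance from the floor of 6 to its highest value in any cell, 11.84.

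Over all 18194 genes, 4.32% were lower by at least 1 in the KO than in the WT cells and 7.9% higher by as much. Of the 9 genes chosen here, 5 were lower by at least 1 (*Wnt5b*, *Wls*, *Wnt3a*, *Wnt8a* and *Lef1*) and 0 higher, with a median of -1.24 against 0.00 over all genes. Since the genes were picked on this contrast, nothing follows from the excess. Against *Prdm14*+/- cells within run 3, 5.62% of all genes were lower by at least 1 and 8.6% higher, and 2 of the 9 were lower (*Wnt5b* and *Wls*) and 0 higher. Between *Prdm14*+/- and WT cells, 1.95% of all genes were lower and 2.42% higher, and 3 of the 9 were lower (*Wnt5b*, *Wnt3a* and *Wnt8a*) and 0 higher. Of the 2384 genes on in all 13 WT cells, 21 (0.881%) were on in at most 2 of the 4 KO cells, and both *Wnt5b* and *Wls* were among these 21. Since both were picked for being low in the KO cells, nothing follows from this either. It also rests on their main probe sets. By 1422602_a_at *Wnt5b* was on in 12 of 13 WT cells, and by 1437434_a_at *Wls* was on in 3 of 4 KO cells. By these sets neither gene would meet both conditions.

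Read cell by cell, ligand and carrier were missing in different combinations. Both genes were on in 1 of 4 KO cells (cell 81), 10 of 13 *Prdm14*+/- cells and 13 of 13 WT cells. KO cell 8 had *Wnt5b* alone, KO cell 18 had *Wls* alone, and KO cell 21 had neither. Thus each of the 4 possible states was seen in 1 KO cell. Of the 3 *Prdm14*+/- cells outside the joint state, cells 66 and 119 had *Wls* alone and cell 79 had neither. With any probe set allowed to call a gene on, KO cell 8 joined the cells with both, which left 2 of 4 KO cells with both, 1 with *Wls* alone and 1 with neither. The state of cells 21 and 79 did not depend on the probe set.

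**Figure D2:**
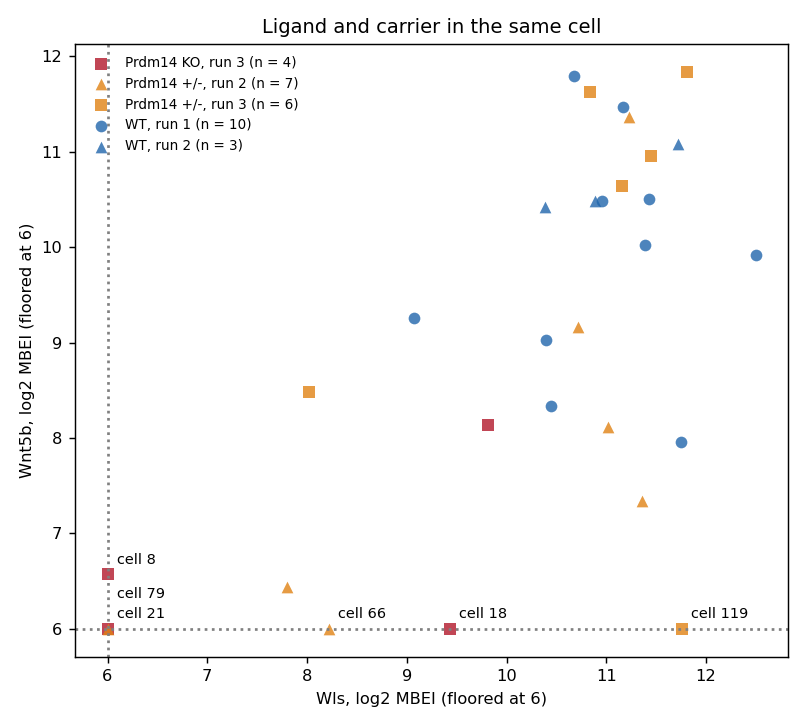
*Wnt5b* against *Wls* in the same cell, both as floored log2 MBEI, with colours for the label and symbols for the array run. All 13 WT cells lie in the upper right, KO cell 21 and *Prdm14*+/- cell 79 share the corner at the floor, and KO cells 8 and 18 lie on opposite axes.

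The 2 cells with neither *Wnt5b* nor *Wls* did not have few probe sets on. KO cell 21 and *Prdm14*+/- cell 79 had 13270 and 12624 probe sets above the floor, against 9861 to 14204 (median 12646.5) in the 24 cells with both genes on. Cell 66 had the fewest of all 30 arrays (9856) and cell 119 had 10983, and these were also the only cells with neither *Wnt5b* nor *Wnt5a* on. WT cell 59, at 9861, had both *Wnt5b* (8.33) and *Wls* (10.45) on the main probe sets. In KO cell 21 the mean floored level of PGC genes was 11.05, and in cell 79 it was 10.87. The rest of the pathway was read in both: *Wnt5a* was 8.60 and 9.27, *Lef1* 8.58 and 10.95, *Axin2* 10.31 and 10.89, and *Ctnnb1* 12.72 and 12.66 in cells 21 and 79.

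Across the 30 cells the floored values of *Wnt5b* and *Wls* had a Pearson r of 0.647, a description over cells that share labels and runs. By the same measure, over 6283 genes on in 5 to 25 cells, the pattern of *Wnt5b* was most like those of *Tagln2* (0.768), an actin-binding protein gene, *Gja1* (0.732), the gap junction protein connexin 43, *Cth* (0.730), *Hspg2* (0.693), the basement membrane proteoglycan perlecan, and *Bcat1* (0.683). The pattern of *Wls* was most like those of *Spint1* (0.806), a membrane protease inhibitor, *Tagln2* (0.793), *Dnmt3b* (0.771), a de novo DNA methyltransferase, *Add1* (0.745) and *Gja1* (0.715). *Gja1* was on in 0 of 4 KO, 7 of 13 *Prdm14*+/- and 12 of 13 WT cells, and *Spint1* in 1 of 4, 9 of 13 and 13 of 13. *Dppa3*, a PGC gene, which averaged 12.55 in KO, 10.23 in *Prdm14*+/- and 9.05 in WT cells, ran the other way, with r of -0.744 to *Wnt5b* and -0.513 to *Wls*.

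PGC and mesoderm genes differed between the labels as well. Over all genes, 7.9% were higher by at least 1 and 4.32% lower in KO than in WT cells. Against *Prdm14*+/- cells of run 3 these shares were 8.6% and 5.62%. Of 14 PGC genes, 8 were higher by at least 1 and 0 lower in KO than in WT cells, and the same counts held against *Prdm14*+/- cells of run 3. Of 19 somatic mesoderm genes, 4 were lower and 1 higher in KO than in WT cells, 8 were lower and 1 higher against *Prdm14*+/- cells of run 3, and 9 were at the floor in every KO cell, against 1 in every *Prdm14*+/- cell and 4 in every WT cell. A gene is more easily at the floor in all of 4 cells than in all of 13. The count was also highest in KO cells for endoderm genes (7, 5 and 3 of 11 in KO, *Prdm14*+/- and WT cells). The same held for blood and endothelial genes (8, 7 and 6 of 12) and extraembryonic ectoderm genes (5, 3 and 3 of 10). It did not hold for epiblast and ectoderm genes (7, 6 and 8 of 9) or PGC genes (1, 0 and 1 of 14). No shift can be read from these counts at the floor. *Pdgfra*, a receptor of mesoderm, was on in 0 of 4 KO, 7 of 13 *Prdm14*+/- and 9 of 13 WT cells. The part of these shifts in the differences of *Wnt5b* and *Wls* was not tested.

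RefSeq start sites (GRCm38.p6) were at hand for 7 of the 9 genes, in 13 windows of 250 bases before a start. They were searched on both strands for the TCF/LEF motif CTTTG followed by 2 bases that are each A or T, a form of the letters that Lef1 and its relatives bind. A match was found in 2 of the 13 windows, against 4874 of 32851 windows (14.8%) in the whole table. One lay 71 bases before the third *Wnt5b* start and the other 147 bases before the fourth *Lef1* start, and both of these windows lie within the annotated gene. The following stretches show the matches in capitals (the second on the opposite strand), and the third sequence is the whole window of *Wls*, which holds no match and is shown because *Wls* and *Wnt5b* were low in the same label. A match describes letters only and says nothing of a bound site.
Wnt5b chr6:119449439-119449468, minus strand: agtaagtctctCTTTGATctgctccctgtc
Lef1 chr3:131156136-131156165, plus strand: caacctcagaaTACAAAGtaggattgcatt
Wls chr3:159839400-159839649, plus strand: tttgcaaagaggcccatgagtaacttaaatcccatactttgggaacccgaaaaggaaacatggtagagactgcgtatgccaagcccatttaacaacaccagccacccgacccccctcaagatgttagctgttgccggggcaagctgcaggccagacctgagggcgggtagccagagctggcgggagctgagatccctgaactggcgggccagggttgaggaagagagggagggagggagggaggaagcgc

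Of the canonical ligands, *Wnt3* (chromosome 11, 103774175 to 103818021) was on in 1 of 30 cells, *Prdm14*+/- cell 97, at 6.94. Its only probe set has the suffix _x_at, which marks probes that can match other transcripts, and so has the main probe set of *Wnt5b*. *Wnt3* was thus not detectable in 29 cells, and no difference between labels can be read.

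*Wnt3a* (chromosome 11, 59248036 to 59290751), known for its part in forming paraxial mesoderm, was at 0 in KO cells 8, 18 and 21 and at 7.67 in cell 81. It was on in 4 of 13 *Prdm14*+/- cells, at 8.11, 9.57, 9.62 and 10.46, and in 8 of 13 WT cells, at 8.21 to 10.50. The KO cell that had it lay below every other cell that had it, but cells at the floor were found under each label. KO minus WT was -1.71 (pooled SD 1.69) and KO minus *Prdm14*+/- within run 3 was -0.93 (pooled SD 1.74).

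*Wnt8a* (chromosome 18, 34542327 to 34548061), a ligand of the posterior epiblast, was listed at 0 in all 4 KO cells. It was on in 1 of 13 *Prdm14*+/- cells (cell 99, 8.999) and in 6 of 13 WT cells, at 7.15 to 9.53. All 3 WT cells of run 2 had it (9.53, 8.89 and 8.60), against 3 of the 10 WT cells of run 1. The difference of -1.26 (KO minus WT, pooled SD 1.36) thus differed with the run, and was -3.01 against the WT cells of run 2 alone. *Wnt3a* and *Wnt8a* were on together in 0 of 4 KO, 1 of 13 *Prdm14*+/- and 5 of 13 WT cells.

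*Wnt5a* (chromosome 14, 28504543 to 28527448), the close relative of *Wnt5b* that in mice also guides PGC migration through Ror2, was on in all 4 KO cells, at 10.26, 10.99, 8.60 and 11.66 in cells 8, 18, 21 and 81. In the *Prdm14*+/- cells it was 2.36 at the lowest, 10.03 at the median and 11.42 at the highest, with 11 of 13 on, and in the WT cells 0, 9.96 and 11.21, with 12 of 13 on. The labels overlapped over nearly the whole range. KO minus WT was 0.89, within the pooled SD of 1.56, and KO minus *Prdm14*+/- within run 3 was 0.36 (pooled SD 1.80). Of its other probe sets, 1437673_at was on in 1 of 4, 3 of 13 and 7 of 13 cells, 1448818_at in 2 of 4, 4 of 13 and 3 of 13, and 1456976_at in none of 30.

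The KO cells without *Wnt5b* had *Wnt5a*. Both were on in 2 of 4 KO, 10 of 13 *Prdm14*+/- and 12 of 13 WT cells, and *Wnt5a* alone in 2 of 4, 1 of 13 and 0 of 13. By the main probe sets, *Wnt5a* was on without *Wls* in 2 KO cells (8 and 21) and in *Prdm14*+/- cell 79. *Wnt5b*, at 6.57, was on without *Wls* in KO cell 8. In that cell 1437434_a_at read *Wls* at 9.02, so its states without *Wls* depend on the probe set. *Wnt3*, *Wnt3a* and *Wnt8a* were on in 1, 13 and 7 of 30 cells. They were on in none of the 3 cells without *Wls*, which are too few for a link to be read. Of the 5 ligands, KO cells had 1, 1, 2 and 3 on, *Prdm14*+/- cells 0 to 4 and WT cells 2 to 4. Fewer than 2 were on in 2 of 4 KO, 3 of 13 *Prdm14*+/- and 0 of 13 WT cells.

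**Figure D3:**
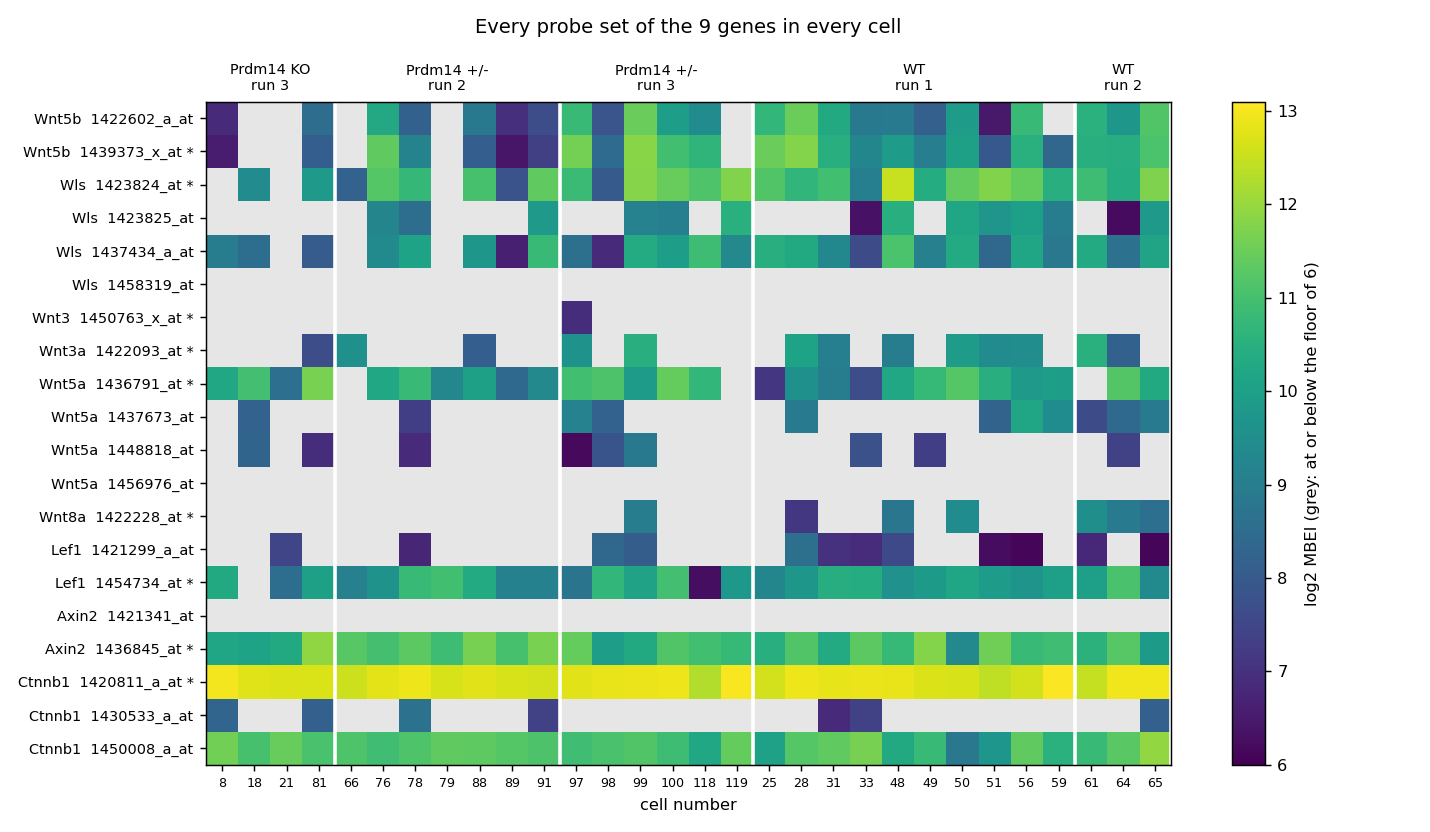
All 20 probe sets (vertical axis, an asterisk marks the one that stands for its gene) in each cell (horizontal axis), grouped by label and array run, with log2 MBEI as colour and grey for values at or below the floor of 6. The 3 sets 1458319_at, 1456976_at and 1421341_at are grey in all 30 cells, and the *Wls* sets 1423824_at and 1437434_a_at differ in KO cell 8.

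On the response side, *Lef1* (chromosome 3, 131110297 to 131224357), the DNA-binding partner of β-catenin, read 10.30, 5.98, 8.58 and 10.02 in KO cells 8, 18, 21 and 81. It was on in all 13 *Prdm14*+/- cells, at 6.27, 9.78 and 10.99 (lowest, median and highest), and in all 13 WT cells, at 9.26, 9.91 and 11.06. Cell 18 alone lay at the floor, and 2 KO cells were inside the WT range. KO minus WT was -1.24 (pooled SD 0.98) and -0.33 without cell 18, and within run 3 KO minus *Prdm14*+/- was -0.70 (pooled SD 1.83). The second probe set, 1421299_a_at, was on in 1 of 4 KO (cell 21, 7.48), 3 of 13 *Prdm14*+/- and 8 of 13 WT cells.

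*Axin2* (chromosome 11, 108917828 to 108950783), a direct target that feeds back on the pathway as a scaffold of the β-catenin destruction complex, was on in all 30 cells by 1436845_at. It read 10.21, 10.13, 10.31 and 11.91 in the KO cells, with means of 10.64 ± 0.85 (SD, n = 4) in KO, 11.03 ± 0.48 (SD, n = 13) in *Prdm14*+/- and 10.78 ± 0.68 (SD, n = 13) in WT cells. KO minus WT was -0.14 and, within run 3, KO minus *Prdm14*+/- was -0.12, both well within the SD between cells. These small differences depended on KO cell 81, at 11.91. Without it KO minus WT was -0.56, within the pooled SD of 0.72. KO minus *Prdm14*+/- over all runs was -0.39 with cell 81 and -0.81 without it, the latter beyond the pooled SD of 0.58. The other *Axin2* set, 1421341_at, was at the floor in all 30 cells.

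*Ctnnb1* (chromosome 9, 120933400 to 120960507), which encodes β-catenin, was on in all 30 cells at close levels by its main probe set. That set averaged 12.79 ± 0.13 (SD, n = 4) in KO, 12.75 ± 0.20 (SD, n = 13) in *Prdm14*+/- and 12.77 ± 0.20 (SD, n = 13) in WT cells, and KO minus WT was 0.02 (pooled SD 0.19). Scaled to the same 75th percentile it became -0.71, an alternative that moved the median of the 5273 genes with a mean above 8 to -0.56, against 0.13 without it. By 1450008_a_at, also on in all 30 cells, the means were 11.28 ± 0.28 (SD, n = 4), 11.08 ± 0.30 (SD, n = 13) and 10.76 ± 0.86 (SD, n = 13) in KO, *Prdm14*+/- and WT cells. The third set, 1430533_a_at, was on in 2 of 4, 2 of 13 and 3 of 13.

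Other Wnt pathway genes included higher and lower ones, to be read against the 4.32% lower and 7.9% higher of all genes. Of 19 ligands, 14 were on in any cell, and only *Wnt5b*, *Wnt3a* and *Wnt8a* differed by at least 1 between KO and WT cells. *Wnt6* was on in 0 of 4 KO, 5 of 13 *Prdm14*+/- and 2 of 13 WT cells, and *Wnt7a* in 2 of 4, 7 of 13 and 7 of 13. Of 12 secretion genes, 2 were lower (*Wls* and *Vps35*, a retromer subunit that recycles Wls, -1.08) and 4 higher in KO than in WT cells, among them *Tmed5* (1.66), *Gpc3* (1.54) and *Notum* (1.26), an extracellular enzyme that removes the Wnt lipid. *Porcn*, which adds that lipid, was on in 3 of 4 KO, 10 of 13 *Prdm14*+/- and 11 of 13 WT cells and differed by -0.42 (KO minus WT).

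Among 23 receptor genes, 1 was lower, a share near that of all genes, and 4 were higher in KO than in WT cells. *Fzd1* was higher by 2.12 and was on in 4 of 4 KO, 4 of 13 *Prdm14*+/- and 4 of 13 WT cells, and *Fzd6* was higher by 1.56. *Fzd3* was on in 0 of 4 KO, 6 of 13 *Prdm14*+/- and 7 of 13 WT cells and differed by -1.31. *Lgr4* was higher by 1.32 than in WT cells, within its pooled SD of 1.93, and differed by -0.35 from *Prdm14*+/- cells of run 3 and by -0.22 (KO minus WT) with the run as a block. *Ror2*, the Wnt5 receptor, was on in 4 of 4, 13 of 13 and 10 of 13 cells and differed by 0.92 (KO minus WT).

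Downstream, 1 of 19 transduction genes was lower and 0 higher in KO than in WT cells, and the 1 was *Ctnnbip1* (-1.33), which encodes an inhibitor of β-catenin. Of 14 nuclear factors, 3 were lower, *Bcl9* (-1.49), a coactivator of β-catenin, *Lef1* and *Tcf7l1* (-1.17), and 1 was higher, the corepressor *Tle1* (1.13). Of 23 Wnt response genes, 6 were lower and 5 higher, with a median of 0.00. Against *Prdm14*+/- cells of run 3, 6 of the 23 were lower and 3 higher, beside 5.62% and 8.6% of all genes. Response genes differed both ways over all runs, since *Cdkn1a* (2.25), *Sp8* (1.67) and *Dll1* (1.51) were higher, while *Dkk1* (-1.61), a secreted inhibitor of the receptor Lrp6, was on in 0 of 4 KO, 5 of 13 *Prdm14*+/- and 5 of 13 WT cells. *Sp8* and *Dll1* differed by only 0.80 and 0.08 from *Prdm14*+/- cells within run 3, and with the run as a block their KO minus WT differences turned to -0.28 and -1.92.

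Of 15 secreted inhibitors, 1 was lower (*Dkk1*) and 3 higher, *Kremen1* (1.80), *Sfrp1* (1.50) and *Sost* (1.46). *Kremen1* was on in 4 of 4 KO, 7 of 13 *Prdm14*+/- and 1 of 13 WT cells. Of 22 planar polarity genes, which act in the branch that Wnt5 ligands can feed, 2 were lower, *Prickle1* (-2.62, on in 0 of 4 KO, 9 of 13 *Prdm14*+/- and 9 of 13 WT cells) and *Vangl2* (-1.56), and 2 were higher, *Daam2* (1.96) and *Celsr1* (1.71). The medians of the 8 lists lay between -0.20 and 0.13, against 0.00 over all genes. Several named KO minus WT differences of at least 1 lay within their pooled SD, like that of *Lgr4*. They were those of *Wnt8a*, *Gpc3*, *Fzd3*, *Tle1*, *Tcf7l1*, *Dll1*, *Dkk1*, *Sfrp1*, *Sost* and *Celsr1*.

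**Figure D4:**
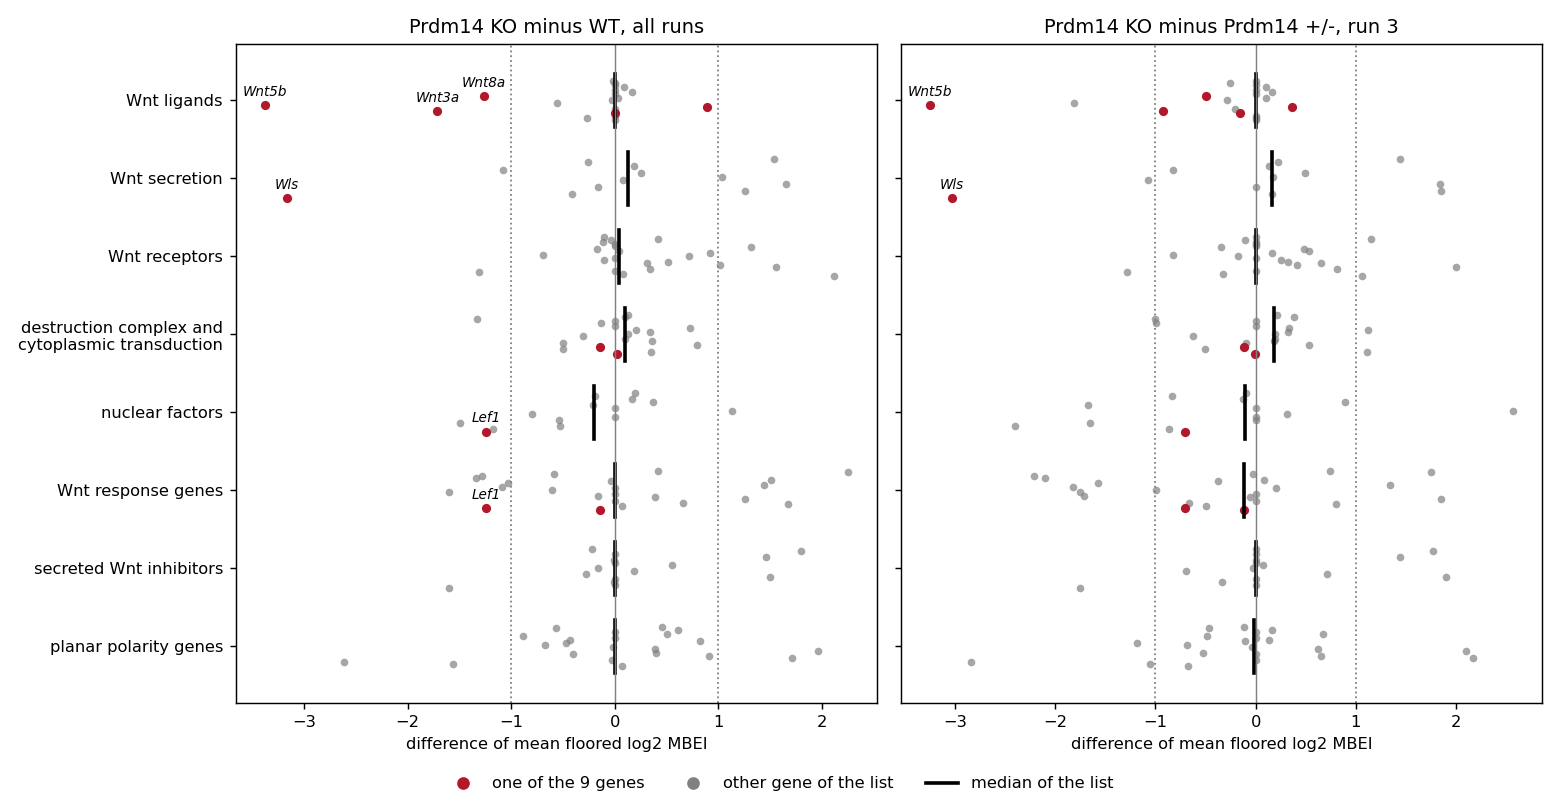
Difference of mean floored log2 MBEI (horizontal axes) for every measured gene of 8 Wnt pathway lists (rows), KO minus WT over all runs (left) and KO minus *Prdm14*+/- within run 3 (right), with the 9 genes described here in red and black lines for list medians. *Wnt5b* (-3.38) and *Wls* (-3.17) lie farthest to the left in the left panel, and list medians lie near 0.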

How the data were processed

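Amplified cDNA of 30 single PGCs was hybridised to Mouse Genome 430 2.0 arrays (Affymetrix), and the authors deposited log2 MBEI values from dChip 1.3 (PM/MM difference model). The scaling between arrays and the origin of zeros (not given in the sources used here) can affect levels. Zeros made up 63.7% of an array's values on average (58.9 to 69.6%). The platform annotation gave gene names: 34958 of 45101 had 1 symbol, 932 had several and 9211 were not listed. All 20 probe sets of the 9 genes matched RefSeq for GRCm38 by gene identifier. A gene was represented by its probe set of highest mean, values were floored at 6, and group means were subtracted. A difference of at least 1 was counted. The number of arrays limits the precision. The genes, the pathway and marker lists and the alternatives were chosen with earlier results of these data known. Named pathway genes were up to 4 per list with the largest differences of at least 1 between the KO and WT labels. *Porcn*, *Ror2*, *Vps35*, *Wnt6*, *Wnt7a*, *Gja1* and *Spint1* counts and *Pdgfra* were picked for mention after their values were seen. Some genes of these lists were not analysed here. No pair of arrays held identical values (Pearson r 0.578 to 0.737 between arrays). Differences and counts were checked on simulated cells. Alternatives were floors of 4 and 8, quantile normalization, a common 75th percentile, a common median of the 3239 probe sets above 0 on every array, all probe sets of a gene, medians, run as a block, single runs, and leaving out each KO cell. Python 3.11.15, NumPy 2.4.6, pandas 2.3.3, SciPy 1.17.1 and matplotlib 3.10.9 were used.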

Additional observations from a re-analysis of the deposited data

Results flagged for a closer look

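Among the 4 KO cells, cell 81 stood apart from the other 3 for *Wnt3a* and *Axin2*. For *Wnt3a* its gap to the next value was the whole range of the 4 cells (a share of 1), since the gene was at 7.67 in cell 81 and at 0 in the others. For *Axin2* the gap was 0.899 of the range, with 11.91 in cell 81 and 10.13 to 10.31 in the others. These were 2 of the 7 genes whose floored values varied among the KO cells, and all 7 were read in the same 4 cells. About 1 in 20 groups of normally distributed values would be marked so by chance. That rate does not apply to *Wnt3a*, where 3 values tied at 0 make the share 1 by construction. Cell 81 was also the KO cell with both *Wnt5b* and *Wls* on, and its somatic mesoderm genes averaged 8.05, the highest of the 4, against 7.01 to 7.38 in the others. The part of this in its Wnt values was not tested.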

How the results depend on the processing

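No difference of at least 1 among the 9 genes changed sign under any alternative. Of 306 differences of the 9 genes under the listed alternatives, 287 moved by no more than the pooled SD between cells and 19 by more, and of 63 under alternatives chosen after seeing the data, 57 and 6. KO minus WT became -2.03 for *Wnt5b* with a floor of 8 and -1.67 for *Wls* as the mean over all its probe sets. With the run as a block it became -6.14 for *Wnt5b* and -4.54 for *Wls*, extrapolations that rest on 3 WT cells. The number of genes lower by at least 1 in KO than in WT cells was 5, but 2 with a floor of 8 and 3 between medians. With the higher floor, 5 *Prdm14*+/- cells and 1 WT cell had *Wnt5b* or *Wls* at the floor, against 3 and 0 with the floor of 6. With single KO cells left out, the KO minus WT difference ranged from -3.87 to -3.16 for *Wnt5b*, from -3.84 to -2.57 for *Wls* and from -1.77 to -0.33 for *Lef1*, and KO minus *Prdm14*+/- from -2.58 to -1.86 for *Wnt5b* and from -2.96 to -1.69 for *Wls*. The count of genes lower in KO than in WT cells ranged from 4 to 5, and that against *Prdm14*+/- cells was 2 and became 4 without KO cell 81. Without the 2 *Prdm14*+/- cells lowest in PGC genes (78 and 100), an alternative chosen after seeing the data, KO minus *Prdm14*+/- was -1.85 for *Wnt5b* and -2.12 for *Wls*. Apart from the construction of the floors and the block, what moved them was not tested. No paired analysis was possible because cell numbers are not shared between labels. With 63.7% of values at 0, a weak transcript cannot be told from a missing one.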
